A study of Mus musculus with 4 samples.

Results

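The cornified envelope and desmosome genes described here are 10 genes chosen by name: the envelope precursors Ivl, Sprr1a, Evpl and Ppl, the cross-linking enzyme Tgm1, the epithelial adaptor Sfn, and Perp, Dsp, Jup and Pkp1 of the desmosome. They are 10 of 30011 gene or transcript names on a one-colour mouse array, and were read at 12 of its 39429 transcript probes, 2 each for Ivl and Dsp and 1 for every other gene. The rule itself uses gene names and no measured value, but the genes were proposed with earlier results of these data known. RNA came from primary kidney tubular cells of male mice 8 weeks old on the B6.J background, grown in renal growth medium and all given the phorbol ester PMA (100 ng/ml), an activator of protein kinase C. There were 2 wild type and 2 SerpinB2-/- samples, and untreated cells are not analysed here. The labels do not say which part of Serpinb2 is missing, nor whether the samples of a genotype came from separate animals or cultures. The p-values thus reflect the spread among these 4 samples alone, and that spread may be technical.

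The cornified envelope is the cross-linked protein shell that replaces the plasma membrane of terminally differentiating squamous cells. Transglutaminases join involucrin, the plakins and small proline-rich proteins at the membrane, and the plakins tie this scaffold to desmosomes, the junctions that anchor keratin filaments between cells. Plasminogen activator inhibitor-2 (PAI-2), the product of Serpinb2, is itself a transglutaminase substrate found in the envelope of keratinocytes. Kidney tubules form no cornified envelope, but their epithelium has desmosomes.

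Signals are given as the scanner's processed units, averaged over the spots of a probe. Comparisons were made after each array had been scaled to the 75th percentile of its probes, which lay at 1903 and 2069 units in wild type against 2144 and 1910 in SerpinB2-/- (replicates 1 and 2 in each case). A probe was tested where it was well above background, by the scanner software's mark, on both arrays of at least 1 genotype. All 12 member probes passed, 11 of them on all 4 arrays and Tgm1 through wild type alone. All 4 arrays lay on 1 slide. Their order on it ran with genotype, so the 2 cannot be told apart. In wild type the Serpinb2 probe gave 3047 and 3383 units, and in SerpinB2-/- cells 5.88 and 7.21, where it was not well above background, and was thus at least 123-fold lower. For such a bound the wild type mean was divided by the dimmest signal still well above background on each SerpinB2-/- array, or by the probe's signal where that was higher. It holds for this processed signal alone and is no firm minimum under other treatments of background.

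The first sequences shown are 60-base probes, shown because these dim probes include those with the largest falls. They are given 5′ to 3′ on the strand of the transcript, with positions from the files (mm9). Both Ivl probes lie on the minus strand, at chr3:92375367-92375426 and chr3:92375498-92375557, with 71 bases between them. The Jup probe lies at chr11:100238038-100238097 (minus strand). The dimmer Dsp probe has coordinates 1100 bases apart, chr13:38285480-38286579 (plus strand), so it is interrupted in the genome.
Ivl, brighter probe: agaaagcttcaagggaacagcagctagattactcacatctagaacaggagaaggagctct
Ivl, dimmer probe: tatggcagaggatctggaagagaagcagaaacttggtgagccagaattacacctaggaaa
Jup: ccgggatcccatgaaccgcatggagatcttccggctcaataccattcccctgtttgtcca
Dsp, dimmer probe: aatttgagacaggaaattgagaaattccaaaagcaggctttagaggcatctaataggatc

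The second sequences are the promoters of Ivl and Sprr1a, shown because both genes fell and both windows hold the AP-1 motif. AP-1, a dimer of Fos and Jun proteins, is a textbook mediator of the phorbol ester response. The sequences are RefSeq's (GRCm38.p6), 250 bases ending just before the annotated start, at chr3:92573736-92573985 for Ivl and chr3:92485882-92486131 for Sprr1a, both on the minus strand. Capitals mark TGANTCA and TATAAA.
Ivl: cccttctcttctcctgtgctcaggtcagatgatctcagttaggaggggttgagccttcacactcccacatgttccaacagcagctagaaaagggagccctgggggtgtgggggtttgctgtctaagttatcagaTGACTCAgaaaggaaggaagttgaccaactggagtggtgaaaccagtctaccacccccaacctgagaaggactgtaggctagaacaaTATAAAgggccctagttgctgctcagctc
Sprr1a: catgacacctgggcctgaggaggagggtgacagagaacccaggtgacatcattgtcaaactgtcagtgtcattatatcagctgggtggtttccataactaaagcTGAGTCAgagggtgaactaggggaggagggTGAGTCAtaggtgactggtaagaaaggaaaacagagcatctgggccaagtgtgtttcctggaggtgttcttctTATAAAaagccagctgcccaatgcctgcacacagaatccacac
TGANTCA begins 116 bases before the start of Ivl, and 146 and 116 bases before that of Sprr1a. TATAAA begins 29 and 43 bases before the start, respectively. Windows of 300 bases (250 before to 50 after the start) were available for 6 of the 10 genes, with 7 starts in all. Searched on both strands, TGANTCA was found in 7.81% and TATAAA in 13.6% of all 32851 such windows, and among the members each in the windows of Ivl and Sprr1a and not in those of Tgm1, Sfn, Dsp and Jup. Of 5 further patterns, AACNNGTT (4.2% of all windows) was found in Sfn and CCACACCC (3.56%) in Ivl. TGACGTCA (1.79%), AACCGGTT (0.146%, a special case of AACNNGTT) and CCGGAAGT (3.89%) were found in no member window. A match is a string of letters, not a shown binding site. Tgm1, Sfn and Jup, whose windows lack TGANTCA, also fell, and the part of AP-1 in any fall was not tested.

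Most of these envelope and desmosome transcripts were lower in SerpinB2-/- cells. At the brightest probe of each gene 8 of 10 members fell, Pkp1 rose and Dsp did not pass the threshold (limma with Benjamini-Hochberg adjustment over 24174 probes, adjusted p under 0.05). The 8 include Tgm1, which entered the test through wild type alone; of the 9 genes well above background on all 4 arrays, 7 fell and 1 rose. Of all probes tested, 15.5% passed, 9.84% lower and 5.65% higher. The members' median log2 change was -0.70, against 0.00 for all probes. Their changes ranged from -1.23 for Ivl to 0.66 for Pkp1. The 2 genotypes did not overlap for any of the 12 probes, 11 being lower in SerpinB2-/- (Tgm1 among them), whereas 33.4% of all probes separated in that direction and 31.1% in the other. Within a genotype the members' scaled log2 values differed by a median of 0.10 between the wild type arrays and 0.13 between the SerpinB2-/- arrays. An exact permutation test of 1 gene with 2 samples per genotype cannot go below p = 0.333 (two-sided), so the calls rest on limma's shared estimate of spread. They also leaned on the wild type arrays: without wild type replicate 1 only Ivl and Sprr1a stayed past the threshold, and without wild type replicate 2 these and Sfn, Perp and Jup. In both cases Pkp1 lost its call as well.

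**Figure D1:**
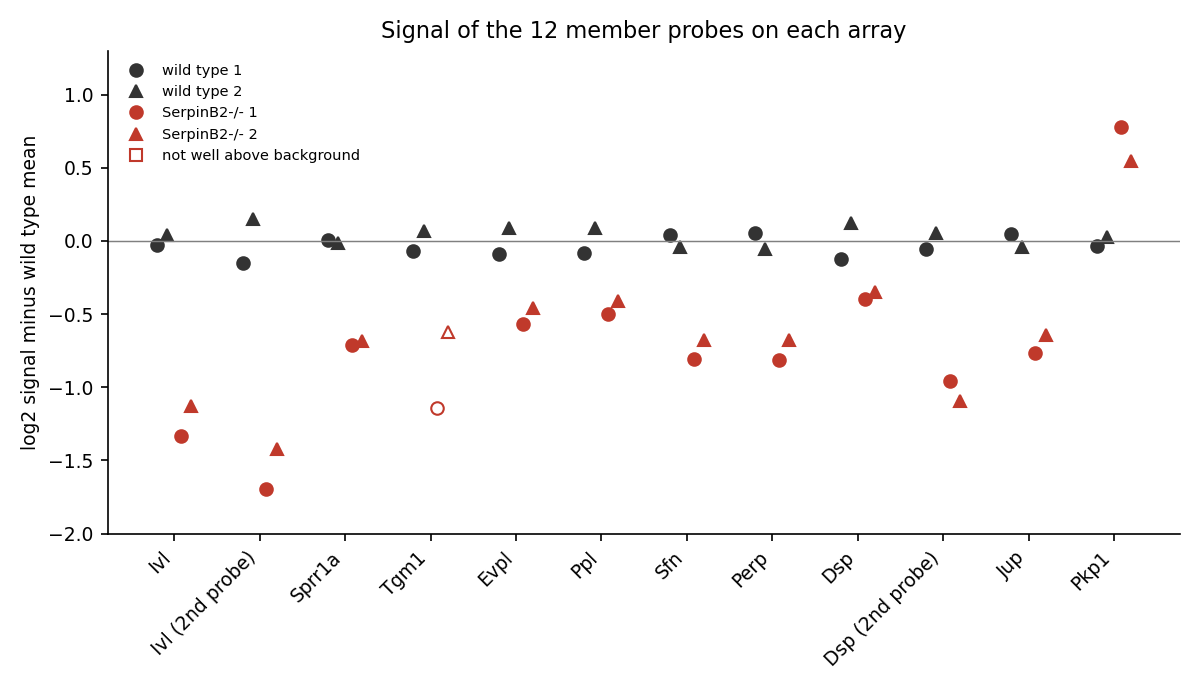
Scaled log2 signal of each of the 12 member probes on each array, with the wild type mean of that probe set to 0 (circles replicate 1, triangles replicate 2, black wild type, red SerpinB2-/-, open symbols not well above background). For 11 probes both SerpinB2-/- arrays lie below both wild type arrays, and for Pkp1 both lie above.

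Ivl encodes involucrin, the glutamine-rich scaffold laid down early at the membrane. Its brighter probe gave 172 and 197 units in wild type against 79.0 and 80.8 in SerpinB2-/-. Both SerpinB2-/- arrays were below both wild type arrays, at well under the wild type level, and the replicates of a genotype lay close together. The change was -1.23 ± 0.09 (log2, SE, n = 2 per group; 95% interval -1.46 to -1.01; adjusted p = 0.00733), or 2.35-fold lower. The dimmer probe, read from another stretch of the same transcript, gave 92.2 and 123 units in wild type against 35.6 and 38.2 in SerpinB2-/-. It fell by 1.56 ± 0.14 (adjusted p = 0.00846), so both probes pointed the same way. Both signals are low, and the size depended on the treatment of background: with normexp, which adds an offset of 50 units, the probes fell by 0.79 and 0.74 and still passed. It also depended on outlier spots at the brighter probe, which fell by 0.88 (adjusted p = 0.0426) with them kept. The dimmer probe fell by 1.51 there (adjusted p = 0.011).

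Sprr1a encodes a small proline-rich protein that bridges other envelope components. It was brightly detected, with 27900 and 29830 units in wild type against 19010 and 17320 in SerpinB2-/-. No wild type value came near a SerpinB2-/- value, and of all members its replicates agreed most closely after scaling (0.02 and -0.03 apart on the log2 scale). It fell by 0.70 ± 0.06 (95% interval -0.85 to -0.55, adjusted p = 0.0078), or 1.62-fold, and by 0.70 with normexp too. Its probe, at chr3:92287955-92288014, lies 87.4 kb from the nearer Ivl probe in the cluster of envelope genes known as the epidermal differentiation complex.

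Tgm1 encodes the membrane-bound transglutaminase that cross-links the envelope. Its probe, at chr14:56319032-56319091, was close to background, with 43.0 and 51.4 units in wild type against 23.0 and 29.5 in SerpinB2-/-, where neither array was well above background. Only a bound can be given, and for the processed signal alone: it was at least 1.75-fold lower in SerpinB2-/- (adjusted p = 0.0387 by limma). With normexp the log2 change was -0.27, a smaller fall than this bound, so the bound is no firm minimum. It was tested because it passed the filter in wild type, a route that favours a gene higher there. The call ended with normexp (adjusted p = 0.200), with quantile normalization (0.0547), in the authors' processed values (0.0508), and without wild type replicate 1 or 2 (0.121 and 0.130).

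Evpl and Ppl encode envoplakin and periplakin, partner plakins that link the envelope to desmosomes and keratin filaments. Evpl (chr11:116081921-116081980) gave 2153 and 2655 units in wild type against 1744 and 1674 in SerpinB2-/-. Ppl (chr16:5086384-5086428) gave 1500 and 1835 in wild type and 1263 and 1197 in SerpinB2-/-. In both genes wild type replicate 2 was the highest array, and the genotypes did not overlap. Evpl fell by 0.51 ± 0.09 (95% interval -0.74 to -0.29, adjusted p = 0.0261) and Ppl by 0.46 ± 0.08 (-0.67 to -0.25, adjusted p = 0.029). These were the smallest falls among the 8. Ppl did not pass without any 1 of the 4 arrays (adjusted p = 0.0606 to 0.0975), and Evpl did not without wild type replicate 1 (0.0644), wild type replicate 2 (0.0866) or SerpinB2-/- replicate 1 (0.080).

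Sfn encodes stratifin, an epithelial adaptor protein that binds phosphorylated partners and is induced by p53. Its probe (chr4:133156842-133156901) gave 2819 and 2915 units in wild type against 1763 and 1722 in SerpinB2-/-. Perp encodes a tetraspan protein of desmosomes and a target of p53 and p63. Its probe (chr10:18576697-18576756) gave 26340 and 26550 units in wild type against 16250 and 15930 in SerpinB2-/-. In both genes the replicates of a genotype lay close together and the genotypes far apart. Sfn fell by 0.75 ± 0.07 (adjusted p = 0.00948) and Perp by 0.74 ± 0.08 (adjusted p = 0.0107), each 1.68-fold. Bright and well measured, they changed as much with normexp, at -0.72 and -0.75.

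The plaque proteins of the desmosome did not move together. Jup encodes plakoglobin, the catenin that binds the tails of desmosomal cadherins. It gave 122 and 125 units in wild type against 78.7 and 76.2 in SerpinB2-/-, again without overlap. It fell by 0.70 ± 0.07 (95% interval -0.89 to -0.51, adjusted p = 0.0106), and by 0.40 with normexp, which still passed (adjusted p = 0.0294). Its call ended without wild type replicate 1 (0.0603).

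Dsp encodes desmoplakin, the plakin that fastens keratin filaments to the plaque, and its 2 probes differed in size. The brighter, at chr13:38290121-38290180, gave 5167 and 6682 units in wild type against 4819 and 4436 in SerpinB2-/-. Its groups did not overlap, but the 2 wild type arrays lay further apart than those of any other member at its brightest probe. The change was -0.37 ± 0.10 (95% interval -0.63 to -0.12) and did not pass (adjusted p = 0.0665). The dimmer probe gave 75 and 87.4 units in wild type against 45.3 and 36.6 in SerpinB2-/-. It fell by 1.02 ± 0.08 (adjusted p = 0.00746). With normexp the probes came to -0.38 (adjusted p = 0.0421) and -0.46 (adjusted p = 0.0127), which lie closer together. With the mean of both probes Dsp passed at -0.70 (adjusted p = 0.0124).

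Pkp1 was the member that rose. It encodes plakophilin-1, an armadillo protein that clusters desmosomal cadherins and is most abundant in stratified epithelium. Its probe gave 5175 and 5872 units in wild type against 10190 and 7730 in SerpinB2-/-. Both SerpinB2-/- arrays were higher than both wild type arrays, replicate 1 more so. It rose by 0.66 ± 0.09 (95% interval 0.42 to 0.90, adjusted p = 0.018), or 1.58-fold, with 0.62 under normexp. The probe lies on chr1:137768027-137768086, 28.3 Mb from that of Serpinb2 on the same chromosome. Without wild type replicate 1 or 2 the adjusted p was 0.0919 and 0.067.

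**Figure D2:**
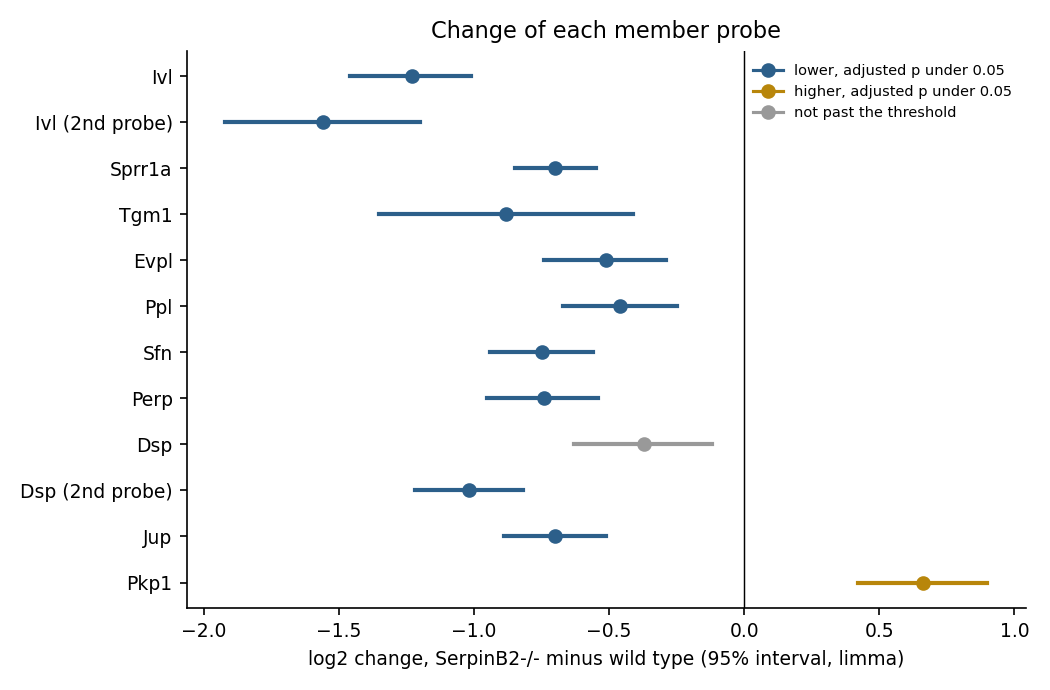
Log2 change of each member probe, SerpinB2-/- minus wild type, with 95% intervals from limma (n = 2 per group; blue lower and gold higher past the threshold, grey not past it). Of the 12 intervals 11 lie wholly below 0, the brighter Dsp probe nearest to it, and that of Pkp1 lies above. Tgm1 was not well above background in SerpinB2-/-, so its plotted value is no measured size.

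Among the other desmosome genes, the widely expressed cadherins went with Jup and not with Pkp1. The files held probes for 13 such genes, of which 6 were measured. Dsg1a, Dsg1b, Dsg1c, Dsg3, Dsg4, Dsc1 and Dsc3, cadherins mostly of stratified epithelium, were not well above background. Of the 6 measured, 3 fell and 0 rose, where 9.45% of genes fell and 5.92% rose at their brightest probe. Desmoglein Dsg2 gave 330 and 329 units in wild type against 185 and 170 in SerpinB2-/-, and fell by 0.92 ± 0.07 (adjusted p = 0.00746). Its second probe fell by 0.73. Desmocollin Dsc2 fell by 0.52 ± 0.07 (adjusted p = 0.0162), and Kazn, whose product kazrin binds periplakin, by 0.51 ± 0.07 (adjusted p = 0.0149), with a second probe at -0.43. The remaining plakophilins showed 0.11 ± 0.06 (Pkp2), 0.21 ± 0.06 (Pkp3) and 0.13 ± 0.06 (Pkp4), none past the threshold (adjusted p = 0.288, 0.0746 and 0.212). Their 95% intervals ran from -0.05 to 0.27, 0.06 to 0.35 and -0.03 to 0.28, so each was below that of Pkp1. Scaled to the median of each array in place of the 75th percentile, which moved all probes up by 0.13, Pkp3 and Pkp4 passed (0.34 and 0.26). Without wild type replicate 1 or 2, 1 of the 6 genes fell.

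Other transglutaminases did not share the lower level of Tgm1. Of 7 genes 4 were measured, 0 fell and 1 rose; Tgm5, Tgm6 and Tgm7 were not well above background. Tgm2, the tissue transglutaminase, gave 85290 and 80220 units in wild type against 91090 and 89230 in SerpinB2-/-, with overlap after scaling (0.10 ± 0.10, 95% interval -0.16 to 0.35, adjusted p = 0.527). Tgm3, an epidermal form, was at -0.06 ± 0.06 (adjusted p = 0.529), and at 0.08 when scaled to the median. Tgm4 was at 0.24 ± 0.07 (adjusted p = 0.0708), and passed when scaled to the median (0.38, adjusted p = 0.0208), where 2 of the family rose. At 33 to 46 units Tgm4 was near background, and with normexp it was at 0.11 (adjusted p = 0.403). F13a1, the coagulation factor XIII transglutaminase of macrophages and platelets, rose by 0.50 ± 0.09 (adjusted p = 0.0274). Its 30.2 to 47.0 units were near background, and the call ended with normexp (0.21, adjusted p = 0.206) and without either wild type array or SerpinB2-/- replicate 2 (0.123, 0.0855 and 0.0702).

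The other cornified envelope genes were mixed. Of 52 listed, 50 had probes and 29 were measured, 8 fell and 1 rose, with a median of -0.19. Lce1b and Cnfn, among the 8, were not well above background in SerpinB2-/- and entered the test through wild type alone. Of genes well above background on all 4 arrays 6 fell. The small proline-rich genes Sprr2i and Sprr2e had the lowest values. Sprr2e gave 1456 and 1719 units in wild type against 590 and 454 in SerpinB2-/-, and fell by 1.64 ± 0.10 (adjusted p = 0.00733). Sprr2i, dimmer, fell by 1.76 ± 0.23 (adjusted p = 0.0149), and by 0.83 with normexp. Crct1, of the same cluster, gave 1800 and 1983 units against 972 and 974 and fell by 0.98 ± 0.08. Lce1b was at least 1.35-fold lower in the processed signal. With normexp its log2 change was -0.25, a smaller fall than this bound, and did not pass (adjusted p = 0.133). Of 7 measured Sprr genes besides Sprr1a, 3 fell. The brightest, Sprr2a2, differed by 0.08 ± 0.07 (adjusted p = 0.473), with a dimmer probe at -0.46. Sprr genes are close in sequence, so probes may share signal. Of 11 late envelope (Lce) genes only Lce1b passed. The gene that rose was suprabasin Sbsn (0.32 ± 0.06, adjusted p = 0.0353, and 0.0804 to 0.15 without any 1 array). Loricrin Lor, the main late envelope protein, named here after its values were seen, gave 1475 and 1895 units in wild type against 1296 and 1063 in SerpinB2-/- (-0.54 ± 0.10, adjusted p = 0.0327, and 0.0596 to 0.0937 without any 1 array). When scaled to the median 3 rose, S100a10 and S100a11 besides Sbsn. The count of 8 became 4 with normexp and 4 without wild type replicate 1 or 2.

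Genes of the basal side and of adherens junctions fell in part. Of 11 plakin and hemidesmosome genes 5 fell and 0 rose (3 without either wild type array or without SerpinB2-/- replicate 2). Lama3 and Lamb3, which encode chains of the laminin to which hemidesmosomes attach, fell by 1.21 ± 0.10 and 0.63 ± 0.10. Their receptor chains Itgb4 and Itga6 fell by 0.70 ± 0.08 and 0.31 ± 0.06, Itga6 not passing when scaled to the median (-0.18). A second Itga6 probe was at -0.13. The plakins Plec (-0.11 ± 0.10), Dst (0.04 ± 0.08) and Macf1 (0.10 ± 0.06) did not pass at their brightest probes, though Macf1 rose when scaled to the median (0.23, adjusted p = 0.0464). Dst had 4 probes, from -0.58 to 0.28, of which the highest rose. Of 13 adherens junction genes 5 fell and 1 rose, with a median of -0.06 that became 0.08 when scaled to the median, and 2 fell without any 1 of the arrays. E-cadherin Cdh1 fell by 0.79 ± 0.07 (adjusted p = 0.0078), Nectin4 by 0.84 ± 0.07, Cdh16, the kidney cadherin, by 0.51 ± 0.10, and Afdn and Nectin2 by 0.44 and 0.40. The catenins Ctnnb1 (-0.04 ± 0.07) and Ctnna1 (-0.03 ± 0.06) did not pass, unlike the related plakoglobin gene Jup. Vinculin Vcl rose by 0.30 ± 0.06, with a second probe at -0.16, and lost its call without any 1 array (adjusted p = 0.0928 to 0.142). Scaled to the median 3 fell and 2 rose: Cdh16 and Nectin2 did not pass (-0.38 and -0.27) and Cdh6 rose (0.40). Afdn did not pass with normexp (-0.26).

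Proteases and regulators known from envelope formation were measured as well. Of 16 measured genes of envelope proteolysis and lipids 4 fell and 2 rose (2 fell without wild type replicate 1, and 0 rose without either wild type array or SerpinB2-/- replicate 2). Prostasin Prss8 fell by 0.90 ± 0.07, matriptase St14 by 0.78 ± 0.06, their inhibitor Spint1 by 0.65 ± 0.06 and the kallikrein Klk8 by 0.50 ± 0.06. The lipid enzymes Ugcg and Elovl4 rose by 0.43 ± 0.07 and 0.44 ± 0.10. Of 23 measured transcription factors and splicing regulators of epithelial differentiation 7 fell and 0 rose (3 without wild type replicate 1). Tfap2a fell by 0.93 ± 0.08, Ehf by 0.90 ± 0.10 and the splicing regulator Esrp1 by 0.72 ± 0.07. Grhl3, among the 7, entered the test through wild type alone, being well above background on only 1 SerpinB2-/- array. It did not pass with normexp (-0.21, adjusted p = 0.155). Trp63, the master regulator of stratified epithelium, was at -0.20 ± 0.07 (adjusted p = 0.108) and Klf4 at -0.01 ± 0.07 (0.911). Of 15 measured p53 genes besides Sfn and Perp 1 fell, Sesn2 (-0.37 ± 0.06), and 0 rose. That is 6.67% lower, where 9.45% of all genes fell and 5.92% rose at their brightest probe. Scaled to the median, 0 fell and 2 rose, Sesn1 (0.26, adjusted p = 0.034) and Plk2 (0.32, adjusted p = 0.0378). Sesn2 did not pass there (-0.23, adjusted p = 0.0604) or without any 1 array (0.0729 to 0.121). The p53 targets Cdkn1a (-0.15 ± 0.07) and Mdm2 (-0.18 ± 0.07) did not pass at their brightest probes, while both dimmer Cdkn1a probes fell, by 1.01 at the most.

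Markers of some cell types moved with the members and those of others did not. The part of cell types in the result was not tested. Median changes were -0.62 for simple epithelial, -0.61 for distal nephron, -1.23 for endothelial and -0.50 for leukocyte markers. They were -0.27 for urothelial, -0.07 for both keratinocyte and proximal tubule, and 0.28 for fibroblast and pericyte markers. In such RNA, fewer cells of a type and less RNA per cell cannot be told apart. Of 10 measured simple epithelial markers 7 fell and 0 rose (4 without wild type replicate 1), with a median of -0.62. They included Rab25 (-1.23 ± 0.06), Krt7 (-0.82 ± 0.07) and Krt19 (-0.77 ± 0.06). The summed signal of the simple epithelial markers, in percent of each array's 75th percentile, was 27800 and 27100 in wild type and 21200 and 22700 in SerpinB2-/-. It came mostly from Krt18, which did not pass (-0.23 ± 0.07, adjusted p = 0.0976), and Krt8. Krt8 fell by 0.29 ± 0.06 (adjusted p = 0.0374), but did not pass when scaled to the median (-0.16, adjusted p = 0.107). Keratinocyte markers were sparse: Krt1, Krt15, Krt6a, Krt6b, Krt4, Ly6d and Calml3 were not well above background, and of 7 measured 3 fell (1 without either wild type array), namely Lypd3 (-1.33 ± 0.08), Krt13 (-0.60 ± 0.07) and Krt17 (-0.37 ± 0.07, but -0.24 and not past the threshold when scaled to the median). The basal keratins Krt5 (-0.07 ± 0.12) and Krt14 (0.07 ± 0.07) did not pass. Krt10 did not either at its brighter probe (0.14 ± 0.06), which rose when scaled to the median (0.27). The dimmer Krt10 probe was at -0.80. The summed signal of these markers was 213 and 206 in wild type and 167 and 176 in SerpinB2-/-. Of the urothelial markers Upk1b, Upk2, Upk3a, Upk3b and Snx31 were not well above background, and of 3 measured Foxa1 fell (-1.08 ± 0.08). The sums, 3180 and 3550 against 2800 and 2730, came almost wholly from Krt20, which did not pass (-0.27 ± 0.08, adjusted p = 0.076). Upk1a did not pass either (-0.22 ± 0.10).

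The labelled tubular identity was partly met. Proximal tubule genes such as Lrp2 and Cubn were measured in all samples, while Slc5a2, Slc5a12, Slc22a8 and Slc13a3 were not well above background. Of 12 measured proximal genes 2 fell and 2 rose (0 and 0 without either wild type array, 1 and 1 without SerpinB2-/- replicate 2), with sums of 1360 and 1370 in wild type and 1150 and 1090 in SerpinB2-/-. Most of the proximal sum came from Ass1 (18880 and 21120 units in wild type), which fell by 0.41 ± 0.07. Ass1 did not pass when scaled to the median (-0.27, adjusted p = 0.0619). Anpep fell by 0.60 ± 0.09, and Hnf4a and Alpl rose by 0.56 ± 0.09 and 0.98 ± 0.10. Lrp2 and Cubn were both at 0.01, with a second Lrp2 probe at -0.66. Of all genes, 9.45% fell and 5.92% rose at their brightest probe. Umod, Slc12a1, Slc12a3, Calb1, Scnn1b, Scnn1g and Atp6v1b1 of the distal nephron were not well above background. Of 8 measured distal genes 4 fell (1 without wild type replicate 1), among them Scnn1a (-1.20 ± 0.08), with sums of 303 and 302 against 187 and 195. Of 11 fibroblast and pericyte markers 2 rose (0 without either wild type array), Postn (1.09 ± 0.16) and Col3a1 (0.81 ± 0.17), and Fbln2 fell (-0.36 ± 0.07, but -0.22 and not past the threshold when scaled to the median), with overlapping sums of 15300 and 14100 against 14900 and 15400. Scaled to the median, 6 rose and 0 fell, and with normexp 3 rose. Lum and Rgs5 were not well above background. Among the endothelial markers Tie1, which fell, entered the test through wild type alone, being well above background on only 1 SerpinB2-/- array. Kdr, the brightest and so the largest part of their sum, did not pass at its brighter probe (0.05 ± 0.11, adjusted p = 0.799). Its second probe was at -1.23. Of 10 endothelial markers 9 fell (2 without either wild type array), with sums of 516 and 509 against 311 and 379 and with Tek and Erg not above background. Of 13 leukocyte markers 8 fell (1 without wild type replicate 1, 3 without wild type replicate 2, 4 without SerpinB2-/- replicate 2), with sums of 1430 and 1310 against 1110 and 1060.

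**Figure D3:**
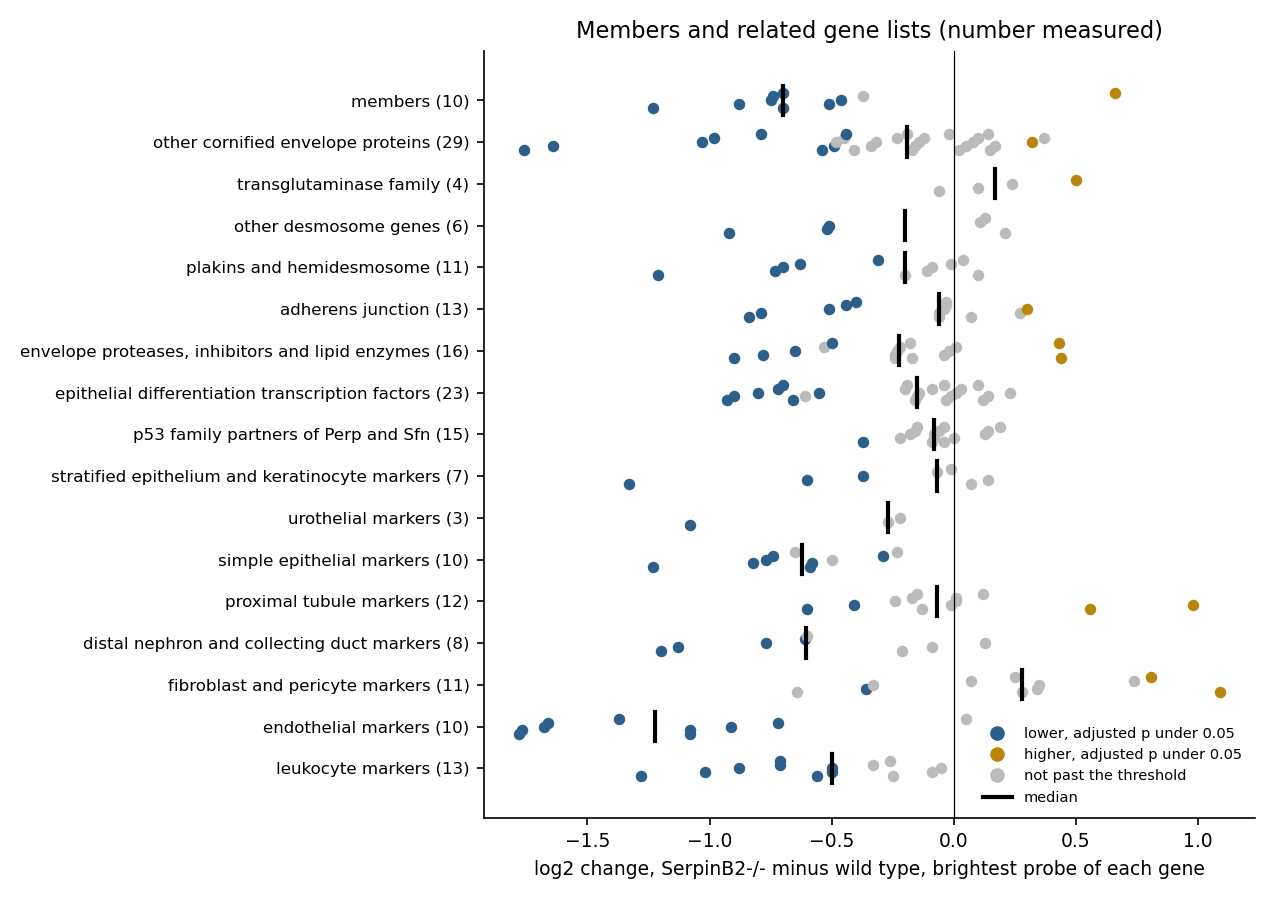
Log2 change, SerpinB2-/- minus wild type, of the 10 members and of the measured genes of each list at their brightest probe (blue lower and gold higher past the threshold, grey not past it, black bars the medians, numbers of genes in brackets). The members' median is -0.70, that of the other cornified envelope proteins -0.19 and that of the simple epithelial markers -0.62.

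**Figure D4:**
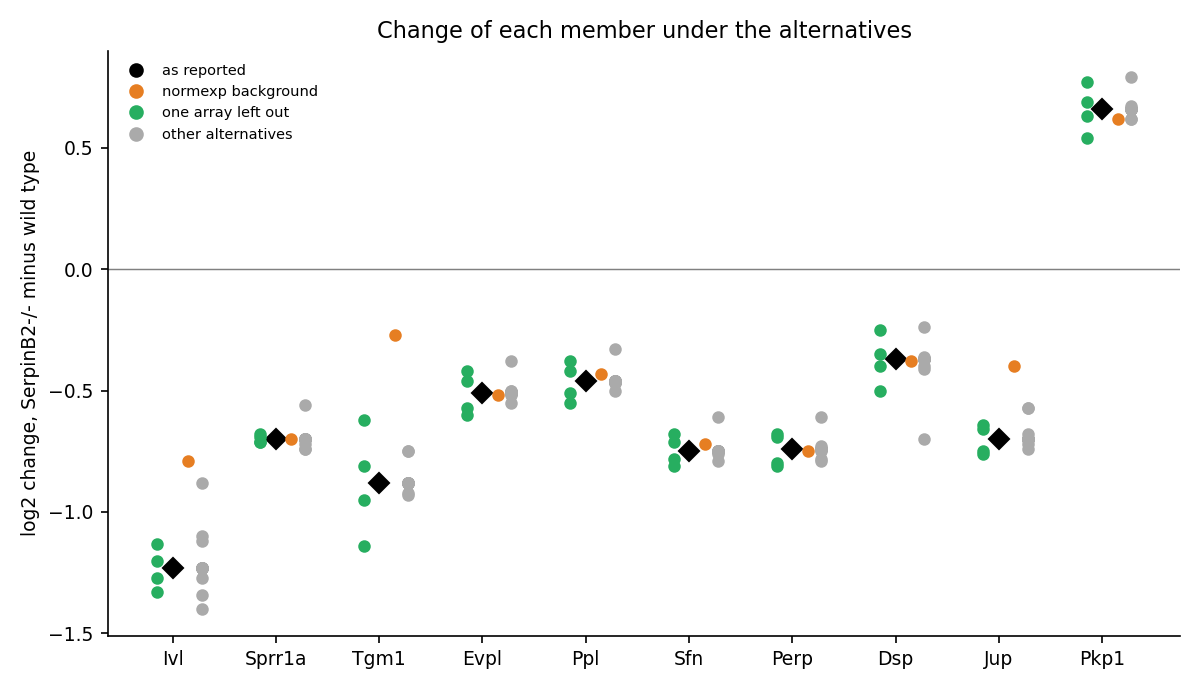
Log2 change of each member at its brightest probe as reported (black) and under the 20 alternatives (orange normexp background, green 1 array left out, grey the rest; the mean of the probes of a gene is among the grey points). No member changes sign. The points of Tgm1, which was not well above background in SerpinB2-/-, are no measured sizes.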

How the data were processed

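RNA of 2 wild type and 2 SerpinB2-/- samples (150 ng each) was labelled with Cy3, per the labels' protocols. The deposited intensity was made with Agilent Feature Extraction (version 10.7.3.1), per the file headers, by subtracting background, removing spatial and multiplicative trends and setting surrogates for dim spots. A second deposited table holds the authors' processed intensity values, scaled to a common 75th percentile. How it was made is not given in the sources used here.

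Control spots and outlier spots were left out, the 4 spots of a probe averaged, and the log2 intensity centred on each array's 75th percentile. Of 39429 probes, 24174 with over 50% of spots well above background on both arrays of a genotype were fitted (limma 3.58.1, R 4.3.3; lmFit and eBayes). Each probe was tested by itself; a gene stands at its brightest probe. Probes were named by accession (28328 matched GRCm38.p6), otherwise as in the files. With 2 arrays per genotype, their number limits precision; spots reaching saturation: 0. The procedure was tested on simulated data.

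Members, lists and the rule for named genes (all members, all measured desmosome and transglutaminase genes, up to 4 per other pathway list and 3 per marker list by size of change) were chosen with earlier results of these data known. No score or test over a list was made. Alternatives covered background, scaling, filter, probe summary, fit, replicate block, arrays left out and threshold; slide and scan could not be a block, there being 1 of each. Replicate numbers come from titles and are not stated to mark an animal or day. Some genes of the lists are counted but not reported by name here.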

Additional observations from a re-analysis of the deposited data

How the results depend on the processing

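Of 199 member values under 20 alternatives, 0 changed sign, 162 stayed on the same side of the threshold, 32 lost their call and 5, all for Dsp, gained one. The 8 members called lower became 0, and the 1 called higher 0, with dim probes kept, where 1 probe in all passed and the members' adjusted p was 0.0834 or more. They became 3 and 0 at an adjusted p under 0.01. With 1 array left out the counts were 2 to 7 lower and 0 to 1 higher. Other settings gave 7 to 9 lower and 1 higher. Of 3746 probes called, 2379 were lower and 1367 higher. The split was 1595 lower and 5205 higher with median scaling (6800 in all), 1589 and 1422 with quantile normalization, and 3000 and 1073 when scaled to probes detected on all arrays. The total was 519 to 1906 with 1 array left out, 479 at 0.01 and 6484 at 0.10. With the replicate block 2687 probes and 8 members lower and 1 higher passed; differences between same-numbered arrays correlated at 0.21 over probes, and with 2 pairs the numbers are not taken to pair the samples. Median scaling moved the median of all probes to 0.13 and that of the members to -0.57; normexp gave 0.01 and -0.47. With median scaling the medians also turned for p53 genes (-0.08 to 0.06), keratinocyte markers (-0.07 to 0.06, and 0.05 with quantile normalization) and proximal tubule markers (-0.07 to 0.07). Dim signal over background limits Tgm1, which has only a bound, and Ivl, Jup and the second Dsp probe, whose sizes shrank by over 1.5 times with normexp.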
